A study of Mus musculus with 6 samples.

Results

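The 9 genes examined here carry the hepatic signal of fibroblast growth factor 19 (FGF19, FGF15 in the mouse) from the cell surface inwards. They are the receptors Fgfr4, Fgfr1, Fgfr2 and Fgfr3, the co-receptor Klb, and the adaptors Frs2, Ptpn11, Grb2 and Shc1, taken by name from this pathway, not from their values, out of 23284 genes in the count files. Liver RNA was sequenced from 3 FXR-WT and 3 Y67F-FXR mice. All were male mice with floxed FXR, the bile acid receptor encoded by Nr1h4. At 8 weeks of age each received AAV8 carrying Cre under the hepatocyte-directed TBG promoter, together with AAV8-TBG for FXR, either wild type or Y67F, in which tyrosine 67 cannot be phosphorylated. Tissue was collected after a further 4 weeks, once the mice had eaten 0.5% cholic acid chow for 6 h, so that both groups share the Cre, the virus and the bile acid feeding and no unfed or uninfected liver enters the comparison. The TBG promoter acts in hepatocytes, and other liver cells keep their own FXR. The question was whether the transcripts of the receptor complex upstream of FXR phosphorylation differed between livers with the 2 forms of FXR.

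FGF15/19 is released by the intestine after a meal and reaches the liver through the portal blood. On hepatocytes it binds FGFR4, a receptor tyrosine kinase, in complex with the single-pass membrane protein β-Klotho, encoded by Klb. The active receptor phosphorylates the membrane-anchored docking protein FRS2, which recruits the phosphatase SHP2, encoded by Ptpn11, and the adaptor GRB2, and through them the Ras to ERK cascade. SHC1 is a further phosphotyrosine adaptor that links receptor tyrosine kinases to GRB2. In the liver the pathway is known for the repression of bile acid synthesis after feeding. These data measure transcripts and do not report on receptor phosphorylation or protein.

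The 4 receptors are paralogs, so the 100-base coding window of Fgfr4 that was most alike in the other 3, summed over them, is shown first, 100 bases being the read length. It lies in the sequence that encodes the tyrosine kinase domain, and was read from GENCODE M21 transcripts on GRCm38. The Fgfr4 window spans chr13:55166957-55167404 on the plus strand (exons 14 to 16 of 18), the Fgfr1 window chr8:25572437-25573127 on the plus strand (exons 14 to 16 of 18), the Fgfr2 window chr7:130169872-130172840 on the minus strand (exons 14 to 16 of 18) and the Fgfr3 window chr5:33734446-33734855 on the plus strand (exons 13 to 15 of 17), introns included in each span. Capitals mark the 71 of 100 bases that are equal in all 4.
Fgfr4: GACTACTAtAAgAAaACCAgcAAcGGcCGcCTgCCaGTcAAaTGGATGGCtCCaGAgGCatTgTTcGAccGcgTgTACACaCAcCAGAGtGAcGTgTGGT
Fgfr1: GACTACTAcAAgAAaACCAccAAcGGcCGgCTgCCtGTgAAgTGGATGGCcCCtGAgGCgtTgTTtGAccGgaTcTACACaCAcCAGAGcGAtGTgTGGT
Fgfr2: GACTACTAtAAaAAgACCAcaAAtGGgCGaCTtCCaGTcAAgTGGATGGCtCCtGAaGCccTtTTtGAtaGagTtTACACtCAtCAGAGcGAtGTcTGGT
Fgfr3: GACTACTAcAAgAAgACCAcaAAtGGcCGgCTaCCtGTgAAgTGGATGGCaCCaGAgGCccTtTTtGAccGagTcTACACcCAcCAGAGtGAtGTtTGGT
In this window Fgfr1 equalled Fgfr4 at 85 of 100 bases, Fgfr3 at 80 and Fgfr2 at 76. The longest identical run between any 2 of the receptors was 26 bases, between Fgfr1 and Fgfr3, and Fgfr4 shared at most 20 bases in a row with Fgfr1 or with Fgfr3. No 100-base stretch of Fgfr4, Klb or Ptpn11 occurred in a transcript of another gene. The share of 100-base stretches that did was 0.278% for Frs2, 0.616% for Fgfr1, 1.92% for Fgfr2, 2.36% for Grb2, 2.71% for Shc1 and 8.8% for Fgfr3, the last through the annotated gene G630022F23Rik. In the mm9 annotation of the count files, no exon of the 9 genes overlapped another gene.

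The count files gave each gene 1 merged set of exons on mm9. Fgfr4 lay at chr13:55254179-55270120 (plus strand, 18 exon blocks), Klb at chr5:65739650-65775242 (plus, 5 blocks), Fgfr1 at chr8:26629244-26686186 (plus, 18 blocks), Fgfr2 at chr7:137305965-137410322 (minus, 19 blocks) and Fgfr3 at chr5:34064373-34079717 (plus, 19 blocks). The adaptor Frs2 lay at chr10:116507183-116585530 (minus, 10 blocks), Ptpn11 at chr5:121580542-121641406 (minus, 16 blocks), Grb2 at chr11:115505458-115569911 (minus, 6 blocks) and Shc1 at chr3:89222473-89233951 (plus, 13 blocks). Merged exon length ran from 2610 bases for Grb2 to 5684 for Frs2.

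Each liver had between 19551113 and 22053320 reads counted in genes, and 12453 genes had enough reads to be tested. Across them 121 genes, 0.972%, were called, that is, passed both an adjusted p of 0.05 and a 1.5-fold difference in edgeR's quasi-likelihood test (Benjamini-Hochberg), 53 lower (0.426%) and 68 higher (0.546%) in Y67F-FXR, a split that was 68 lower and 52 higher when libraries were scaled by their totals. Hepatocyte markers dominated all livers, with Alb at 71311 ± 1636 CPM (counts per 1000000 scaled reads, SD, n = 3) in FXR-WT and 71807 ± 4473 in Y67F-FXR. Mouse Nr1h4 was 186 ± 30.2 CPM in FXR-WT and 175 ± 9.84 in Y67F-FXR. The study's flag-FXR constructs carry human FXR, but its methods do not name species or tag for the AAV transgene itself, and how many transgene reads aligned to the mouse gene was not tested, so this count does not check the group labels. Libraries differed in how they sampled long and short genes within both groups: the 20% of genes with the longest exons stood 0.19 (log2) above its mean over the 6 livers in Y67F-FXR replicate 1 and 0.17 below it (−0.17) in Y67F-FXR replicate 2, with the shortest 20% moving the opposite way. Summed levels of the marker lists overlapped between groups for hepatocytes, Kupffer cells and leukocytes, cholangiocytes and endothelial cells. Of the erythroid list the 4 globin genes had no read, and the remaining gene, Alas2, overlapped between groups. Of the 11 Kupffer cell and leukocyte markers 6 were fitted lower and 5 higher (median log2 fold change −0.02). Of the 9 endothelial markers 3 were fitted lower and 6 higher (median 0.015). Single markers of these lists lay lower in every Y67F-FXR liver: the neutrophil genes S100a8 (log2 fold change −2.73) and S100a9 (−1.95), and the endothelial gene Lyve1 (−0.89). None of the 3 was called by edgeR, and each had an unadjusted p under 0.05. DESeq2, which gave 10 of the 11 Kupffer cell and leukocyte markers an adjusted p, called S100a9. Both neutrophil genes were low. S100a8 averaged 1.03 CPM in FXR-WT and 0.151 in Y67F-FXR, where it had 5, 3 and 1 reads. S100a9 averaged 2.76 and 0.716 CPM. The 10 stellate cell markers summed to 219.9 to 239.6 CPM in FXR-WT and 160.9 to 219.6 in Y67F-FXR, and 9 of them were fitted lower (median log2 fold change −0.34, none called and 3 at an unadjusted p under 0.05 by edgeR, and Lrat called by DESeq2). The part of these differences in the results below was not tested. In whole liver, fewer cells of a type and less RNA per cell cannot be told apart.

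None of the 9 genes was called by edgeR or by DESeq2, which called 3.6% of the genes it gave an adjusted p. The 3 that reached an unadjusted p under 0.05 in edgeR's quasi-likelihood test were Fgfr4, Fgfr2 and Shc1, all with lower values in Y67F-FXR, beside 6.67% of all tested genes that did so in this direction and 6.75% in the other. For Fgfr4, Grb2 and Shc1 every Y67F-FXR liver lay below every FXR-WT liver, against 10.5% of all tested genes, and no member was separated in the other direction. Of the 9, 7 were fitted lower, against 48% of all tested genes, and their median log2 fold change was −0.20, that of all tested genes 0.01. The smallest adjusted p among the 9 was that of Shc1, at 0.124.

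**Figure D1:**
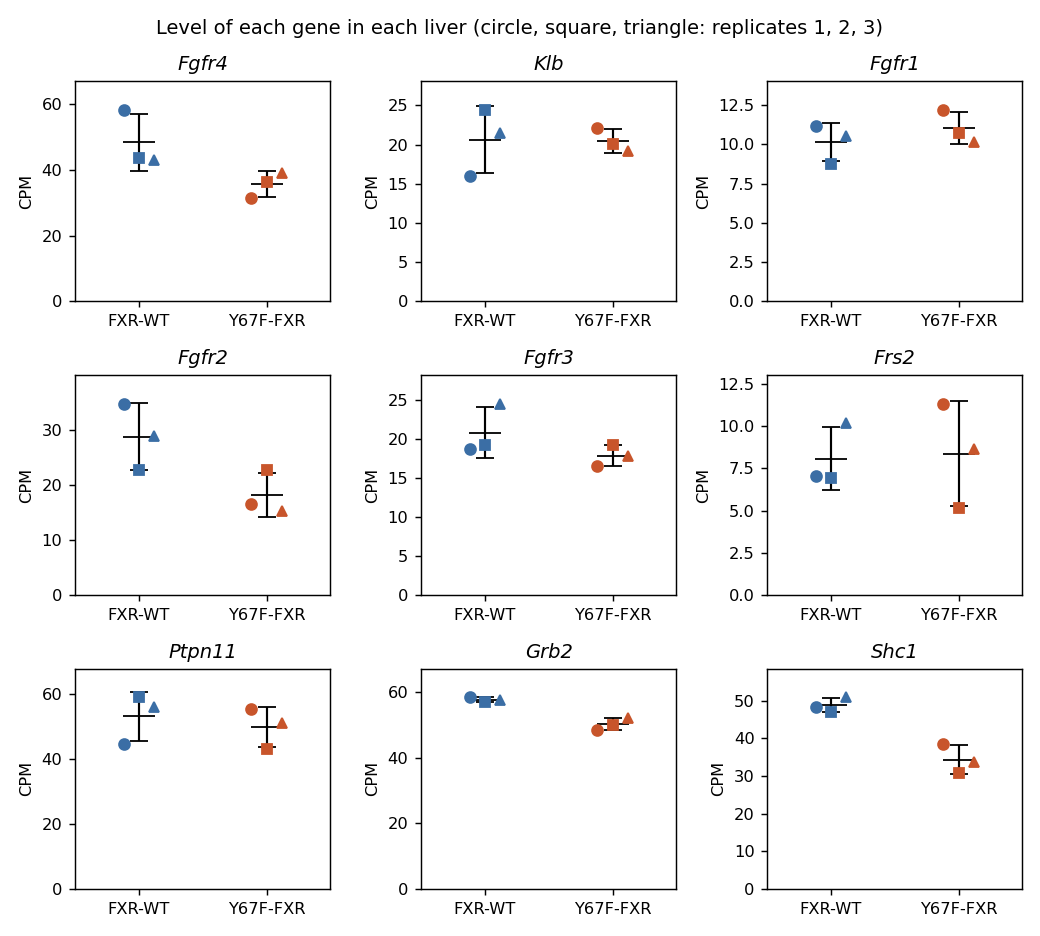
CPM (y axis, from 0 in each panel) of the 9 genes in each liver, with FXR-WT in blue and Y67F-FXR in orange, the horizontal bar at the mean and the error bar 1 SD (n = 3). The groups stand apart for Fgfr4, Grb2 and Shc1 and overlap for the other 6 genes.

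Fgfr4, the principal receptor of FGF19 in hepatocytes, measured 58.4, 43.7 and 43.2 CPM in the FXR-WT livers and 31.3, 36.3 and 39.2 CPM in the Y67F-FXR livers. The highest Y67F-FXR liver was below the lowest FXR-WT liver, and FXR-WT replicate 1 stood well above the rest of its group. The means were 48.4 ± 8.62 and 35.6 ± 3.99 CPM (SD, n = 3), and the fit put Y67F-FXR 26.4% lower. The fitted log2 fold change was −0.44 (SE 0.160, 95% interval −0.81 to −0.07, adjusted p = 0.278 by edgeR's quasi-likelihood test). Without FXR-WT replicate 1 it was −0.29. The difference did not pass the test, and its interval runs from almost none to one larger than 1.5-fold.

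Klb, the co-receptor without which FGF19 binds poorly, measured 16.0, 24.4 and 21.5 CPM in FXR-WT and 22.1, 20.1 and 19.2 CPM in Y67F-FXR. The 3 mutant livers all lay within the range of the wild-type group, which held both the lowest and the highest value. The means were 20.6 ± 4.29 and 20.5 ± 1.5 CPM. The log2 fold change was −0.01 (SE 0.172, 95% interval −0.41 to 0.38, adjusted p = 0.990 by edgeR's quasi-likelihood test), an interval that stays within 1.5-fold in both directions.

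The other receptors are expressed more widely outside hepatocytes, and FGF19 signals through them mainly where β-Klotho is present. Fgfr2 measured 34.7, 22.6 and 28.8 CPM in FXR-WT and 16.5, 22.7 and 15.2 CPM in Y67F-FXR. The groups met at replicate 2 of each, which were nearly equal, and the remaining mutant livers lay below all wild-type livers. Fgfr2 had the largest fitted difference of the 9 genes, 36.8% lower in Y67F-FXR, from means of 28.7 ± 6.04 and 18.2 ± 4.02 CPM, with a log2 fold change of −0.66 (SE 0.208, 95% interval −1.14 to −0.18, adjusted p = 0.214 by edgeR's quasi-likelihood test).

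Fgfr3 measured 18.7, 19.2 and 24.5 CPM in FXR-WT and 16.6, 19.2 and 17.8 CPM in Y67F-FXR, with a log2 fold change of −0.22 (95% interval −0.56 to 0.12, adjusted p = 0.609 by edgeR's quasi-likelihood test). The wild-type mean was raised by replicate 3, and the other values of both groups lay close together. Fgfr1 measured 11.1, 8.78 and 10.5 CPM in FXR-WT and 12.2, 10.7 and 10.2 CPM in Y67F-FXR. It was the lowest of the receptors and the only one fitted higher, with a log2 fold change of 0.12 (95% interval −0.23 to 0.48, adjusted p = 0.812 by edgeR's quasi-likelihood test). Its groups overlapped.

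Among the adaptors, Shc1 and Grb2 separated the groups and Frs2 and Ptpn11 did not. Shc1 measured 48.5, 47.2 and 50.9 CPM in FXR-WT and 38.4, 30.9 and 33.7 CPM in Y67F-FXR. The groups did not overlap, and the mutant livers spread more widely than the wild-type livers. The means were 48.9 ± 1.91 and 34.4 ± 3.82 CPM, 29.7% lower in Y67F-FXR, with a log2 fold change of −0.51 (SE 0.124, 95% interval −0.79 to −0.22, adjusted p = 0.124 by edgeR's quasi-likelihood test). The adjusted p was 0.0165 in DESeq2 and 0.0365 in edgeR's quasi-likelihood test with offsets for gene length, but the fitted fold stayed under 1.5 in both, at log2 fold changes of −0.50 and −0.53, so Shc1 was not called in either. Over all 15 alternatives its adjusted p ran from 0.0165 (DESeq2) to 0.407 (edgeR, without Y67F-FXR replicate 3).

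Grb2, which couples phosphorylated receptors and docking proteins to the Ras exchange factor SOS, measured 58.5, 57.0 and 57.6 CPM in FXR-WT and 48.6, 50.1 and 52.3 CPM in Y67F-FXR. It had the tightest groups of the 9 genes, at 57.7 ± 0.732 and 50.3 ± 1.87 CPM, and these did not overlap. The difference was small, 12.8% lower in Y67F-FXR, with a log2 fold change of −0.20 (SE 0.105, 95% interval −0.44 to 0.04, adjusted p = 0.479 by edgeR's quasi-likelihood test).

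Ptpn11, whose product SHP2 is recruited by phosphorylated FRS2, measured 44.7, 59.1 and 56.0 CPM in FXR-WT and 55.5, 43.0 and 51.2 CPM in Y67F-FXR. The groups covered nearly the same range. Its log2 fold change was −0.09 (SE 0.154, 95% interval −0.45 to 0.26, adjusted p = 0.869 by edgeR's quasi-likelihood test). Frs2 measured 7.04, 6.93 and 10.2 CPM in FXR-WT and 11.3, 5.13 and 8.64 CPM in Y67F-FXR. The mutant livers held both the highest and the lowest value. Its log2 fold change of 0.06 had the widest uncertainty of the 9 (SE 0.295, 95% interval −0.63 to 0.74, adjusted p = 0.969 by edgeR's quasi-likelihood test), so that a 1.5-fold difference in either direction lies inside the interval. Frs2 has the longest exons of the 9, and its deviations from the group mean (log2) of −0.17, −0.19 and 0.36 in FXR-WT and 0.51, −0.62 and 0.12 in Y67F-FXR ran in the same order as those of the longest 20% of genes in each group, apart from FXR-WT replicates 1 and 2. With offsets for gene length the SE of Frs2 was 0.224 and that of Ptpn11 0.108, with log2 fold changes of 0.02 and −0.11. The same offsets lowered the SE of Klb, Grb2 and Shc1 and raised that of each receptor. For Fgfr2 it rose from 0.208 to 0.253 and for Fgfr4 from 0.160 to 0.170.

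**Figure D2:**
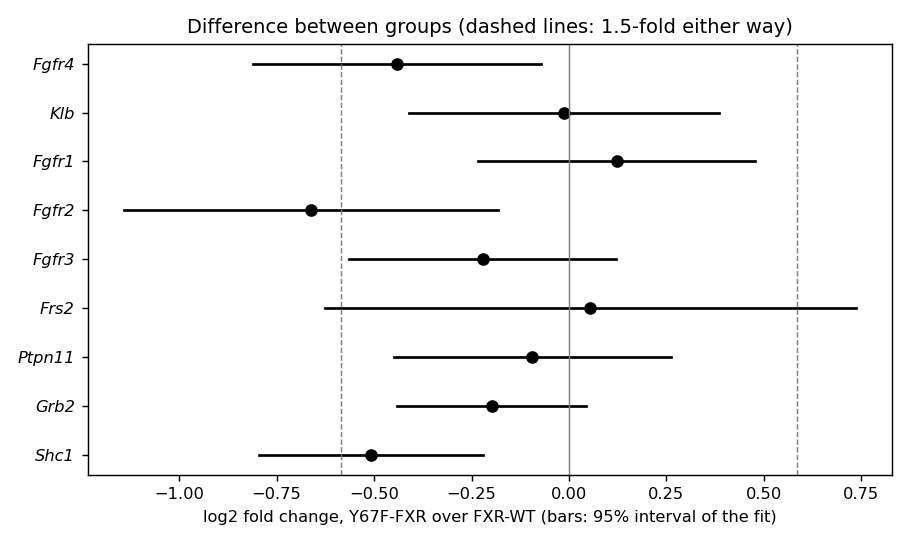
Fitted log2 fold change of Y67F-FXR over FXR-WT (x axis) for each gene, with the 95% interval of the edgeR fit as a bar and 1.5-fold either way as dashed lines. The intervals of Klb, Fgfr1, Fgfr3, Ptpn11 and Grb2 stay inside the dashed lines, those of Fgfr4, Fgfr2 and Shc1 lie below 0 and cross the lower line, and that of Frs2 crosses both.

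The intervals divided the 9 genes by what the data can bound. For 5 of them, Klb, Fgfr1, Fgfr3, Ptpn11 and Grb2, the whole 95% interval lay within 1.5-fold of no difference. For Fgfr4, Fgfr2 and Shc1 it lay entirely below 0 and reached past 1.5-fold, before any adjustment for the number of genes tested. A missed threshold does not show that the groups were alike.

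Levels of different genes were compared per length, as reads per kilobase of merged exon (RPKM, the CPM above divided by length). In FXR-WT the order was Grb2 at 22.1 ± 0.280 RPKM, Fgfr4 at 15.4 ± 2.74, Shc1 at 13.2 ± 0.516, Ptpn11 at 9.49 ± 1.35, Klb at 6.00 ± 1.25, Fgfr2 at 5.37 ± 1.13, Fgfr3 at 4.73 ± 0.738, Fgfr1 at 2.02 ± 0.245 and Frs2 at 1.42 ± 0.326 (SD, n = 3). Neighbours whose livers overlapped were Klb and Fgfr2, Fgfr2 and Fgfr3, and Fgfr1 and Frs2. The docking protein Frs2 was therefore at the bottom of the complex and the general adaptor Grb2 at its top. In Y67F-FXR the order was the same except that Fgfr3, at 4.06 ± 0.299 RPKM, stood above Fgfr2, at 3.40 ± 0.752, and these 2 overlapped. There Grb2 was at 19.3 ± 0.716 RPKM, Fgfr4 at 11.3 ± 1.27, Shc1 at 9.25 ± 1.03, Ptpn11 at 8.89 ± 1.12, Klb at 5.95 ± 0.436, Fgfr1 at 2.20 ± 0.209 and Frs2 at 1.47 ± 0.547, and Fgfr4 overlapped with Shc1, and Shc1 with Ptpn11. Over all livers Grb2 stood at the 79.1 percentile of tested genes by RPKM, Fgfr4 at 72.0, Shc1 at 68.5, Ptpn11 at 64.6, Klb at 56.0, Fgfr3 at 49.4, Fgfr2 at 49.3, Fgfr1 at 34.6 and Frs2 at 27.6.

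Fgfr4 made up more of the FGF receptor transcripts per length than the other 3 together in every liver. Its share was 58.9%, 57.3% and 51.3% in FXR-WT and 51.7%, 51.8% and 58.3% in Y67F-FXR, and these ranges overlapped almost completely. The means were 55.8% ± 4.01 and 53.9% ± 3.78 (SD, n = 3), a difference of −1.88 percentage points (two-sided exact permutation p = 0.7). Fgfr1 held 7.06%, 7.23% and 7.83% in FXR-WT and 12.6%, 9.62% and 9.49% in Y67F-FXR, without overlap. With 3 livers against 3 the smallest p this exact permutation test can give is 0.10, and Fgfr1 gave it (p = 0.5 after Benjamini-Hochberg adjustment over the 5 measures of composition). Fgfr2 held 19.4% ± 1.68 and 16.1% ± 2.88 (exact permutation p = 0.2), and Fgfr3 17.4% ± 3.71 and 19.3% ± 0.374 (exact permutation p = 0.6). Since shares sum to a fixed whole, the higher Fgfr1 share goes with the lower CPM of Fgfr4 and Fgfr2 given above.

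**Figure D3:**
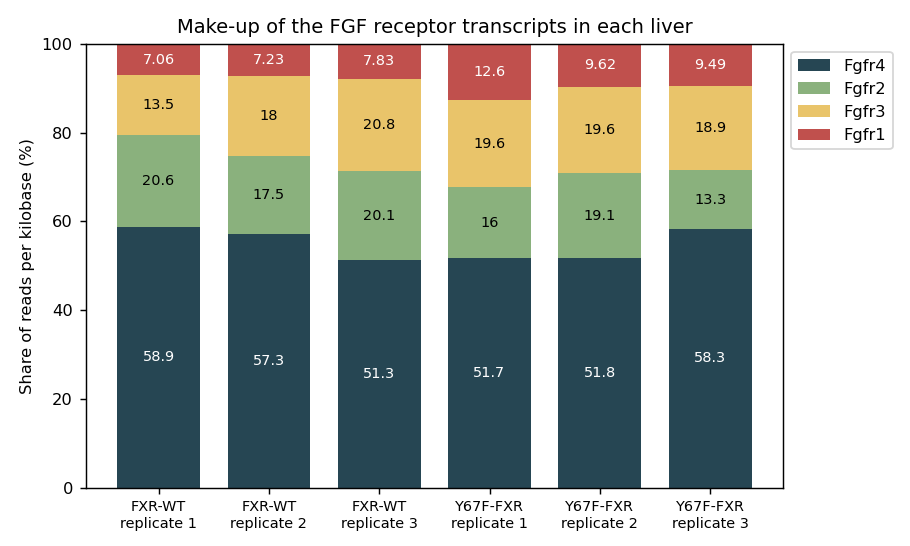
Share of each FGF receptor in the reads per kilobase of all 4 (y axis, percent) in each liver, with the values printed in the bars. Fgfr4 takes over 50% in all 6 livers, and Fgfr1, the top segment, is larger in each Y67F-FXR liver (9.49 to 12.6%) than in any FXR-WT liver (7.06 to 7.83%).

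Receptor and co-receptor act as 1 complex, so their ratio was taken within each liver. Fgfr4 per length was 3.99, 1.95 and 2.20 times Klb in the FXR-WT livers and 1.55, 1.98 and 2.24 times Klb in the Y67F-FXR livers. FXR-WT replicate 1 had the most Fgfr4 and the least Klb. The 5 other livers lay between 1.55 and 2.24, or 0.63 and 1.16 in log2, with Y67F-FXR replicate 1 the lowest. The mean of the log2 ratio was 0.44 lower in Y67F-FXR (log2 difference −0.44, two-sided exact permutation p = 0.5), and −0.13 without FXR-WT replicate 1.

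Promoter sequences, 250 bases before to 50 after the start, were found in RefSeq (GRCm38.p6) for 8 of the 9 genes, all but Fgfr1, in 11 windows. The pair that forms the FGF19 receptor complex is shown, Fgfr4 at chr13:55152568-55152867 and Klb at chr5:65348161-65348460, both on the plus strand, because their start regions differ in base composition. Capitals mark the letters GGGCGG or, on the other strand, CCGCCC, the core of a GC box.
Fgfr4: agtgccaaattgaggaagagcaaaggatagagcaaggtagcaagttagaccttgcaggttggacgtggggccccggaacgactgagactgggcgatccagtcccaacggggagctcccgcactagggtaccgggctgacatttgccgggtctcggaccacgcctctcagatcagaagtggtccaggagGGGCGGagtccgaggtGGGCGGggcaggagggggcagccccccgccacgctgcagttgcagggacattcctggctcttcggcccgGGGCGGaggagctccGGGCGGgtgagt
Klb: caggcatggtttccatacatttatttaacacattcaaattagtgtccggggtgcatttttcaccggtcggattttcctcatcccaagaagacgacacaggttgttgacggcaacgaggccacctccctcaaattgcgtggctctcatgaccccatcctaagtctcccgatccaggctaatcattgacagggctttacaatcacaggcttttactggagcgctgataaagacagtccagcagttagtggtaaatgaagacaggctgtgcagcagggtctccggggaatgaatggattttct
The Fgfr4 window had 4 GC boxes and 65.3% G and C, that of Klb no GC box and 48.3% (median of all promoters 52.67%). GC boxes stood in 6 of the 11 windows, of Fgfr4, Fgfr3, Frs2, Ptpn11 and Shc1, and in 35.7% of all promoters. FXR commonly binds as a heterodimer with RXR to an inverted repeat of AGGTCA spaced by 1 base (IR1). An exact IR1 was in none of the 11 windows and in 0.00913% of all promoters, and a single AGGTCA on either strand was in none, against 16.3% of all promoters. TATAAA, searched on both strands, was in 1 window, of Grb2, and in 13.6% of all promoters. These windows are short, and letters that are absent from them say nothing of binding elsewhere in the gene.

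By the pattern over the 6 livers, measured as the root mean square difference of centred log2 CPM over 11513 genes that averaged 1 CPM or more, the genes nearest to Fgfr4 were Smyd5 (0.0338), Galntl4 (0.0549) and 1810009A15Rik (0.0556). Smyd5 averaged 18.1 CPM in FXR-WT and 13.5 in Y67F-FXR. The genes nearest to Klb were Trim24 (0.0524), Rnf169 (0.0541) and C2cd2 (0.0677). This likeness rests on 6 values a gene.

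The wider pathway was described with 7 lists of 112 genes in all, none of them shared with the 9. Of these, 84 were tested and none was called by edgeR. At an unadjusted p under 0.05 there were 7 lower and 5 higher in Y67F-FXR, together 14.3% of the 84 beside 13.4% of all tested genes. Groups did not overlap for 7 of the 84 that were lower and 7 that were higher, beside 10.5% and 10.2% of all tested genes. DESeq2 called 3 of the 81 it gave an adjusted p, 3.7% beside 3.6% of all such genes, and the 3 were ERK-responsive transcripts.

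Of 18 FGF ligand genes, 11 had no read in any liver, among them Fgf15, the ligand itself, which is made in the ileum. A count of 0 allows up to 3 reads, 0.13 to 0.164 CPM in these libraries, counting error only. The 2 tested were Fgf1, a growth factor that is not secreted by the classical route, at 155 ± 38.0 and 140 ± 18.7 CPM, and Fgf21, a hepatic hormone that also needs β-Klotho. Fgf21 measured 63.0, 14.6 and 14.6 CPM in FXR-WT and 8.70, 12.6 and 8.35 CPM in Y67F-FXR. FXR-WT replicate 1 set most of the difference in means, and the other wild-type livers also lay above all mutant ones. Its log2 fold change was −1.64 (95% interval −2.92 to −0.35, adjusted p = 0.256 by edgeR's quasi-likelihood test).

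Of the 16 genes for heparan sulfate proteoglycans and other co-receptors, 14 were tested, 8 fitted lower and 6 higher (median log2 fold change −0.06), and none was called. Klotho, Kl, and the related Lctl had no read, so Klb was the only Klotho family gene of the lists that was detected. Gpc4, a glypican, averaged 37.8 CPM in FXR-WT and 28.0 in Y67F-FXR, with a log2 fold change of −0.44 (adjusted p = 0.124 by edgeR's quasi-likelihood test), and its groups did not overlap. Fgfrl1, an FGF receptor relative without a kinase domain, averaged 41.5 and 57.8 CPM with a log2 fold change of 0.48 (adjusted p = 0.200 by edgeR's quasi-likelihood test), and Gpc1 16.0 and 25.1 CPM with 0.64 (adjusted p = 0.266 by edgeR's quasi-likelihood test). Both were without overlap and in the direction opposite to Fgfr4.

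Of 16 tested further adaptors of 17, 5 were fitted lower and 11 higher (median 0.07). The docking protein gene Gab1, which works beside Frs2 and also binds SHP2, averaged 12.3 and 16.1 CPM (log2 fold change 0.39, adjusted p = 0.285 by edgeR's quasi-likelihood test). Pik3r1, a regulatory subunit of phosphoinositide 3-kinase, averaged 62.3 and 49.7 CPM (−0.33, adjusted p = 0.467 by the same edgeR test), and Cblb, a ubiquitin ligase, 6.71 and 9.09 CPM (0.44, adjusted p = 0.557 by the same edgeR test). Gab1 and Cblb were the only 2 of the 16 that did not overlap between groups, beside 20.6% of all tested genes.

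All 15 genes of the Ras to ERK cascade were tested, with 6 fitted lower and 9 higher (median 0.10). Rps6ka1, a kinase downstream of ERK, and Mapk3, which encodes ERK1, had log2 fold changes of 0.30 and 0.27 with overlapping groups (adjusted p = 0.544 and 0.594 by edgeR's quasi-likelihood test). Of 16 feedback inhibitors 14 were tested, 7 fitted lower and 7 higher (median −0.02). Nf1, a Ras GTPase activator, averaged 13.8 and 17 CPM (0.30, adjusted p = 0.320 by edgeR's quasi-likelihood test) without overlap. Il17rd and Spry4, inhibitors of FGF signalling, had log2 fold changes of 0.48 and −0.32 (adjusted p = 0.635 and 0.636 by edgeR's quasi-likelihood test).

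ERK-responsive transcripts are induced when the cascade is active but also by other stimuli. Their log2 fold changes ran from −2.06 (Egr1) to 0.81 (Fosl2). Of 18 genes 11 were tested, 7 fitted lower and 4 higher, with a median of −0.39 beside 0.01 for all tested genes. None was called by edgeR, and 4 lower and 1 higher had an unadjusted p under 0.05, the same 5 whose groups did not overlap. Of all tested genes 13.4% had such a p and 20.6% did not overlap, in either direction. The immediate early gene Egr1 measured 37.0, 17.4 and 38.7 CPM in FXR-WT and 6.12, 11 and 5.25 CPM in Y67F-FXR, so that every mutant liver was below every wild-type liver. Its log2 fold change was −2.06 (95% interval −2.90 to −1.22, adjusted p = 0.0547 by edgeR's quasi-likelihood test). DESeq2 called it with an adjusted p of 5.17e-06, and over the 15 alternatives the adjusted p reached 0.238. Phlda1 averaged 70.4 and 37.6 CPM (−0.90, adjusted p = 0.162 by edgeR's quasi-likelihood test). The AP-1 subunit gene Fosl2 averaged 4.73 and 8.28 CPM (0.81, adjusted p = 0.0721 by edgeR's quasi-likelihood test), opposite in direction to Egr1. DESeq2 called both. The other genes without overlap were Jun (−0.49) and Etv5 (−0.63), both fitted lower.

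The 12 other receptor tyrosine kinases were all tested, 7 fitted lower and 5 higher (median −0.03), and none was separated or reached an unadjusted p under 0.05. Per length Egfr stood above Fgfr4, at 23.9 RPKM over all livers against 13.4, while the insulin receptor gene Insr, at 9.48, and the hepatocyte growth factor receptor gene Met, at 8.81, stood below it. The 3 with the smallest p were Insr, with 79.8 and 97.6 CPM (adjusted p = 0.523 by edgeR's quasi-likelihood test), Erbb3, with 13.6 and 23.9 CPM (adjusted p = 0.581 by the same edgeR test), and Egfr, with 166 and 141 CPM (adjusted p = 0.669 by the same edgeR test).

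**Figure D4:**
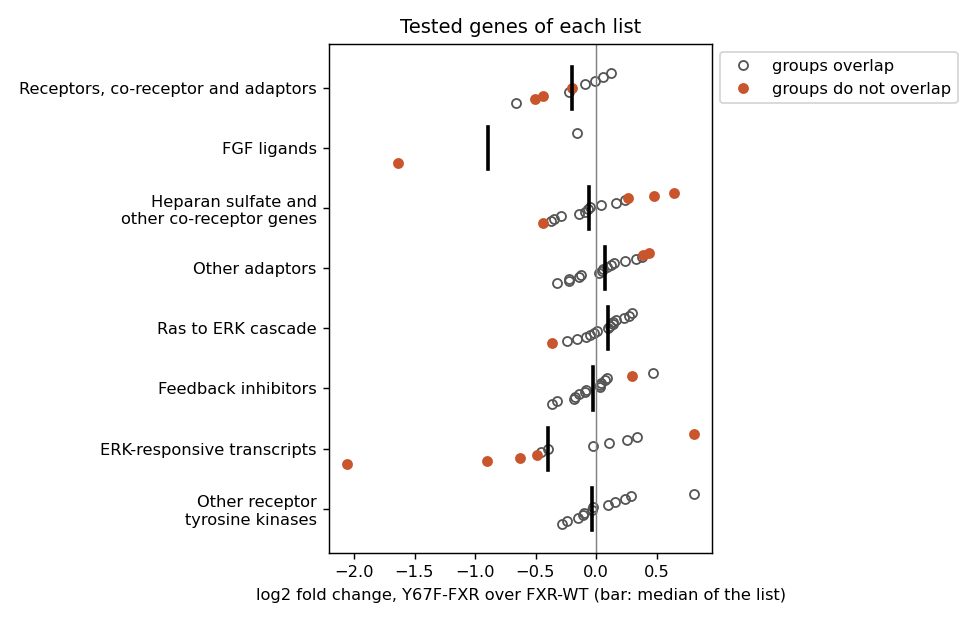
Fitted log2 fold change (x axis) of every tested gene of the 9 and of each pathway list (rows), filled where the groups do not overlap and open where they do, with the median of each list as a black bar. Egr1 and Fgf21 are the points farthest to the left, and the separated points lie on both sides of 0.

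The fitted differences of the 9 genes were recomputed under other scalings, filters and tests and with 1 liver left out. Scaling by library totals moved Grb2 further (−0.27) than leaving out any liver did, and took Fgfr1 to 0.06. The log2 fold change of Fgfr4 ran from −0.52 to −0.29 over 15 alternatives, that of Fgfr2 from −0.87 to −0.51, that of Shc1 from −0.60 to −0.45 and that of Grb2 from −0.27 to −0.17. Those of Fgfr3 (−0.30 to −0.08) and Ptpn11 (−0.21 to −0.01) stayed negative and that of Fgfr1 (0.03 to 0.19) positive, while Klb and Frs2 changed sign. None of the 9 was called under any of the 15.

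**Figure D5:**
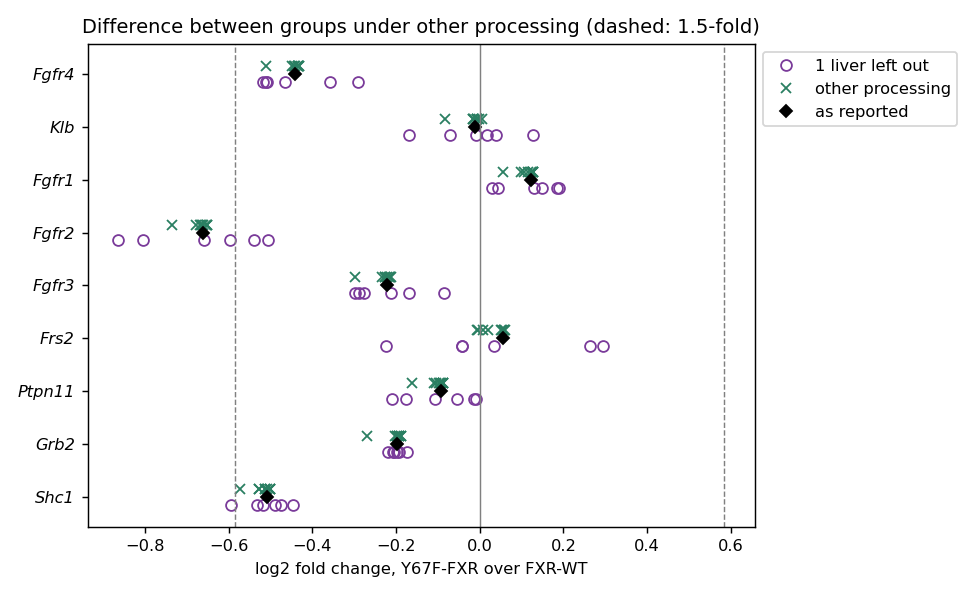
Fitted log2 fold change (x axis) of each gene as reported (diamond), with 1 of the 6 livers left out (circles) and under the 9 other processing choices (crosses), with 1.5-fold either way as dashed lines. Klb and Frs2 lie on both sides of 0, and Fgfr2 and Shc1 lie on both sides of the lower dashed line, Shc1 only without Y67F-FXR replicate 1 (−0.60).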

How the data were processed

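Liver RNA from 3 FXR-WT and 3 Y67F-FXR mice was sequenced as paired-end 100-base reads. Per the labels and file headers, the authors trimmed reads (Trimmomatic 0.36), aligned them (STAR, whose version differs between sources) and deposited raw read counts per gene, from featureCounts 1.4.6-p4 on mm9 without strand, both reads of a pair counted and reads with several positions left out. A deposited table of the authors' comparison (log2 fold change, mean log CPM, p-value, FDR) was not used. Here, counts were filtered (filterByExpr), scaled by TMM and fitted in edgeR 4.0.16 (R 4.3.3) with glmQLFit and glmQLFTest on all 6 livers, and p-values were adjusted by Benjamini-Hochberg over all 12453 genes tested. Calls needed both an adjusted p below 0.05 and over 1.5-fold. Standard errors came from the fit's quasi-likelihood information. CPM used the TMM-scaled totals. DESeq2 1.42.0, other scalings, filters, gene length offsets (loess, span 0.3), a replicate block and leaving out each liver were the alternatives. The edgeR fit was tested on simulated data. At an adjusted p below 0.05 it recovered 2.60% of simulated log2 changes of 0.585, 62.1% of those of 1 and 93.7% of those of 2. Most true differences near 1.5-fold would thus be missed at this threshold. No libraries of a group agreed within sampling noise. The labels name separate samples without stating cultures or litters, so p-values measure the spread between these livers.

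The members and lists were chosen with earlier results of these data known. Named were all 9 members, the 3 tested genes of each pathway list with the smallest unadjusted p, and the 3 genes nearest in pattern to Fgfr4 and to Klb. A gene that this rule names is not reported here. The other list genes are given as counts. Jun, Etv5, Met, Lrat, S100a8, S100a9, Lyve1, Kl, Lctl and Fgf15 were named after their values were seen. The tests of the Fgfr1, Fgfr2 and Fgfr3 shares were added to that of Fgfr4, the only one planned. The marker lists are given by their sums, some also by counts of genes fitted lower and higher. The erythroid sum is that of Alas2 alone. Hras and Adgre1 were read under the older symbols Hras1 and Emr1.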

Additional observations from a re-analysis of the deposited data

How the results depend on the processing

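None of the 9 genes was called under any alternative. Genes called lower and higher numbered 53 and 68 as reported, 216 and 215 with DESeq2, 125 and 124 with gene length offsets, 68 and 52 with library totals (which shift the median log2 fold change by −0.07), and 81 and 86 with no filter on low counts. With the replicate block they numbered 6 and 2, and 47 and 49 with the block and length offsets together. The labels state no pairs, so the numbers were not taken as pairs. Same-numbered livers deviated from their group means with correlations of −0.52, −0.08 and 0.12, and differently numbered livers with −0.59 to 0.58. The highest, 0.58 and 0.54, joined livers whose long and short genes deviated in the same direction. The correlations therefore cannot decide whether same-numbered livers share a litter or day. Leaving out 1 liver gave 7 to 33 lower and 2 to 35 higher, fewest without FXR-WT replicate 3. The reported log2 fold change of Klb, −0.01, was 0.0056 with the replicate block and ran from −0.17 to 0.13 with 1 liver left out. That of Frs2, 0.06, was −0.0064 with library totals, −0.0033 with the replicate block and length offsets together, and ran from −0.22 to 0.29 with 1 liver left out. ERK-responsive transcripts called numbered 0 as reported, 3 with DESeq2 (Egr1, Fosl2 and Phlda1), and 1, Egr1, with library totals, with no filter or with length offsets. The count was 0 to 1 with 1 liver left out, and the 1 was Egr1 when replicate 2 of either group was absent. The cause of these changes was not tested. The Fgfr4 share of receptor transcripts and the Fgfr4 to Klb ratio stayed lower in Y67F-FXR throughout, with differences of −4.15 to −0.35 percentage points and −0.64 to −0.13 log2 units with 1 liver left out. As reported, Frs2 had the largest SE of the 9 (0.295). With length offsets that of Fgfr2 was larger, 0.253 against 0.224.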
